A study of Homo sapiens with 2 samples.

Results

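The metallothionein genes MT1A, MT1E, MT1F, MT1G, MT1H, MT1M, MT1X and MT2A were followed in lung fibroblasts after silencing of periostin. These 8 genes were chosen by name, out of the 21743 genes that could be named on the array through a RefSeq accession, and every probe carrying an accession of one of them was used, which gave 10 probes. The cells were MRC-5, a fibroblast cell line established from human fetal lung. RNA of 1 culture transfected with control siRNA and of 1 culture transfected with periostin siRNA was measured on 1 single-colour Agilent array each, and the series describes the periostin siRNA as given at 10 nM for 48 h. With 1 array per condition, no test between the conditions was possible, no p-value is given, and an effect of the siRNA cannot be told apart from a difference between the cultures. In bulk RNA of this kind, fewer cells that express a gene and less of its RNA per cell cannot be told apart either.

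Metallothioneins are small proteins rich in cysteine that bind zinc and copper and also trap toxic metals such as cadmium. Their genes are switched on by the zinc-sensing transcription factor MTF1, which binds metal response elements in their promoters, and glucocorticoids, interferon, oxidative stress and inflammatory signals are known to raise them as well. In fibroblasts the MT2A gene and several MT1 genes are expressed, whereas MT3 is best known from brain and MT4 from stratified epithelium. The functional genes lie side by side in a cluster on chromosome 16, and the MT1 copies are so alike in sequence that a probe for one may also bind RNA of another. The probe sequences were not in the files used here, so the extent of such sharing was not tested, and each probe is given separately.

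The metal response element is the sequence through which MTF1 acts, and it is shown here because it is the element the metallothionein promoters are known for. The core was searched on both strands, as TGCACNC and TGCGCNC, where N is any base, in the 250 bases before the start of each gene in the RefSeq promoter table of GRCh38.p14. Of the 8 members 3 matched an entry of that table, MT1X and MT2A, whose signals were lower with periostin siRNA, and MT1H, which was not well above background on either array. MT1A, MT1E, MT1F, MT1G and MT1M had no match. The 160 bases just before the start are printed below in lower case, with each match of the core in capitals, on whichever strand it lay.
MT1X, chr16:56682310-56682469, plus strand: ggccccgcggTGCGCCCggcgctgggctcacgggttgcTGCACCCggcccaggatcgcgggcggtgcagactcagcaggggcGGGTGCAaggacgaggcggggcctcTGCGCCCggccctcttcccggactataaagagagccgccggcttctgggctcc
MT2A, chr16:56608424-56608583, plus strand: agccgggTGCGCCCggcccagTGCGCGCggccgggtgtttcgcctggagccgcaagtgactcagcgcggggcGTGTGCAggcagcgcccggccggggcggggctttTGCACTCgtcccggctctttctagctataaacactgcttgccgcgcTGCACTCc
MT1H, chr16:56669654-56669813, plus strand: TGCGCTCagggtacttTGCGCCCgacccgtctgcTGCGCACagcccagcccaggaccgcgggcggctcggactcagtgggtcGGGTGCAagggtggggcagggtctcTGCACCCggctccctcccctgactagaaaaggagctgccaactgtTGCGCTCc
The core was found 4 times in the 250 bases of MT1X, 7 times in those of MT2A and 8 times in those of MT1H. It was found 3 times each in those of MT1B and MT4, other genes of the cluster. The signal of MT1B was lower, and MT4 was not well above background on either array. Of the 27305 promoters of the same length, 24.7% held the core at least once, 1.56% at least 3 times and 0.366% at least 4 times. The TATA box, searched as TATAAA, was found once in MT1X, once in MT2A and not in MT1H, and 11.1% of all promoters held it on either strand. A match is a description of letters and does not show that a factor binds there.

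On the control siRNA array 58.0% of the 58717 non-control spots were flagged by the scanner software as well above background, and on the periostin siRNA array 58.9%. None was saturated, and 1 slide carried both arrays. Signals are given after scaling both arrays to a common 75th percentile, and a ratio is the signal with periostin siRNA over that with control siRNA, on the log2 scale. The error of a probe printed once is the one the scanner software propagates for the spot, and it does not cover the difference between cultures. For bright spots it is close to a fixed share of the signal, 0.20 on the log2 ratio, rather than a scatter measured between spots. POSTN, the gene targeted by the siRNA, stood at 2638 with control siRNA and, at 280, was far lower on the array labelled periostin siRNA. Its log2 ratio was -3.24 ± 0.20 (propagated error, 1 spot). All 12 fibroblast markers looked at were well above background on both arrays, with a summed signal of 381410 and 337730. Their ratios ran from -0.90 ± 0.20 for PDGFRA to 0.83 ± 0.20 for LUM, a span about as wide as that of the metallothioneins, with a median of -0.08, and their part in the values below was not tested. Of 6 epithelial markers CDH1, KRT5, SFTPB and NKX2-1 were not well above background on either array, while SFTPC went from 33.8 to 53.3 and EPCAM from 34.6 to 135. Summed over these epithelial markers the signal went from 75.7 to 200.4, and its part in the values below was not tested. The summed signal of 4 endothelial markers was 133 and 130, with PECAM1 not well above background on either array. That of 6 immune markers was 34.9 and 56.1. Of these only PTPRC, at 17.6 and 25.1, was well above background on both arrays. CD3E and CD74 were so only with periostin siRNA, and HLA-DRA, LAPTM5 and MS4A1 on neither array.

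The metallothionein genes did not move as a block. MT1X, MT1A and MT2A were lower with periostin siRNA, MT1M was higher, MT1E gave a different answer with each of its probes, and the others were dim. None of the 7 members that could be measured was higher and none was lower by more than 3-fold, the size the study used to pick genes on these arrays, while 3.37% of the 16052 genes measured were higher and 2.75% were lower by that much. At 2-fold, again none of the 7 was past the threshold, although MT1X was lower by more than 2-fold with scaling on the median (-1.10) and after loess normalization (-1.01), while 7.97% of all genes were higher and 6.42% lower, and at 4-fold these shares were 1.73% and 1.71%. At 1.5-fold, a threshold chosen after the values were seen, 2 of the 7 were higher and 2 were lower, where 17.6% of all genes were higher and 13.7% lower. The higher members were MT1M and MT1G. The value of MT1G is a bound, and it shrank to 0.06 with another background correction (normexp). That correction also adds an offset of 50 to every signal, which by itself shrinks the ratios of signals this dim. The lower members were MT1A and MT1X, and MT1X rests on its brighter probe, its dimmer probe being at -0.11. The median log2 ratio over the 7, counting the bound of MT1G, was -0.16, against 0.06 over all genes measured. This median is the value of the brighter MT1E probe, and its sign turned, to 0.24, when the probes of a gene were averaged.

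**Figure D1:**
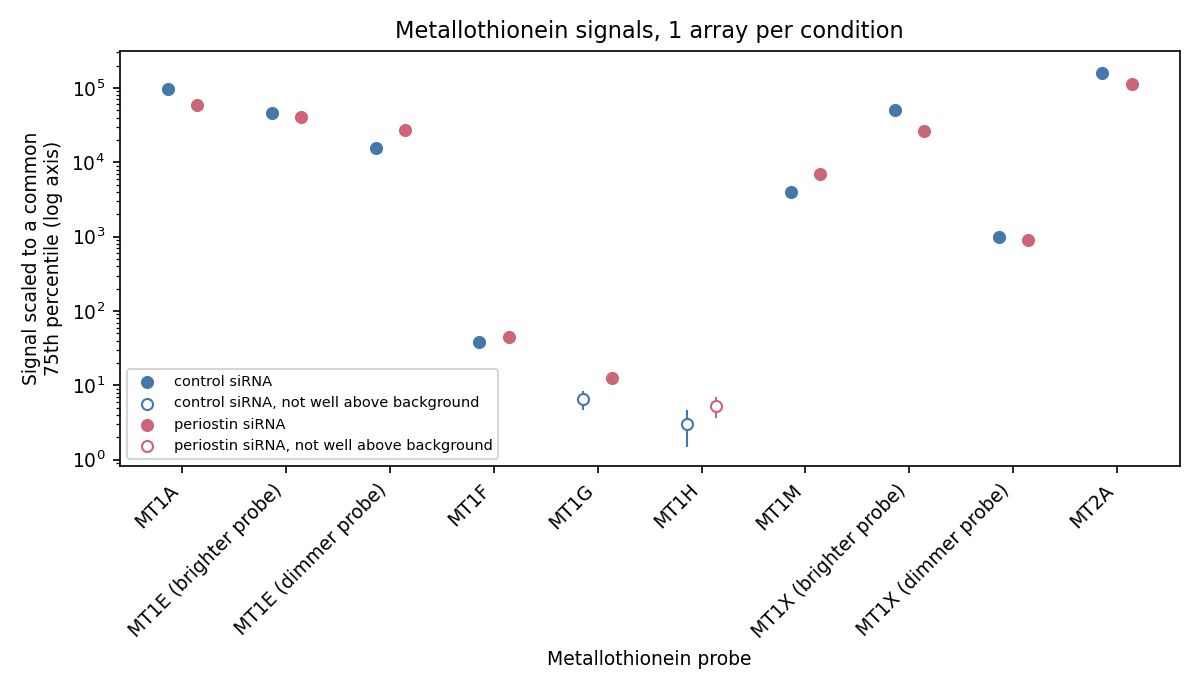
Signal of each metallothionein probe, scaled to a common 75th percentile and on a log axis, with control siRNA (blue) and periostin siRNA (red), 1 array each. Bars are the propagated error of the spot and are hidden by the point where smaller than it, and open points were not well above background. MT1X by its brighter probe went from 51201 to 26117, and MT1M from 3978 to 6945. Signals of different probes are not comparable with each other.

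MT2A, the metallothionein gene best known for being expressed in nearly all tissues, had a signal of 160270 ± 16027 with control siRNA and 113120 ± 11312 with periostin siRNA (propagated error of 1 spot each). The log2 ratio was -0.50 ± 0.20, so that 70.6% of the control signal remained. In the 8 treatments of the signal that were tried it lay between -0.63 with scaling on the median and -0.42 after quantile normalization. Several of these treatments only rescale an array, which shifts the ratios of all bright probes by the same amount. The largest such shift, with scaling on the median, was -0.13 at the median of all genes. A shift of this size could not have turned the sign of MT2A. The same limit applies to the ranges of MT1A and MT1M.

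MT1X was the member with the lowest ratio. Its brighter probe went from 51201 ± 5120 with control siRNA to 26117 ± 2612 with periostin siRNA, a log2 ratio of -0.97 ± 0.20 and 51.0% of the control signal. Its dimmer probe, which carries the same accession, went from 974 ± 97.5 to 904 ± 90.4, a ratio of -0.11 ± 0.20. No outlier flag was set on either probe and each was well above background on both arrays. Their ratios differed by 0.86 ± 0.29. The lower level of MT1X rests on one of its probes.

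MT1A had a signal of 95416 ± 9542 with control siRNA and 58461 ± 5846 with periostin siRNA, from its only probe. The log2 ratio was -0.71 ± 0.20, or 61.3% of the control signal. It lay between -0.84 and -0.66 in all 8 treatments of the signal.

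MT1M had a signal of 3978 ± 398 with control siRNA and 6945 ± 695 with periostin siRNA, also from its only probe. The log2 ratio was 0.80 ± 0.20, so the signal was 1.75-fold higher, and it stayed between 0.68 and 0.85 in all 8 treatments. The ratio of MT1M exceeded that of MT1X, by its brighter probe, by 1.78 ± 0.29, that of MT1A by 1.51 ± 0.29 and that of MT2A by 1.31 ± 0.29. These gaps are several times the spot error, which does not cover the difference between cultures. They compare changes within the same pair of arrays and do not depend on the scaling by a constant.

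MT1E was measured by a pair of probes with the same accession that gave different ratios. Its brighter probe went from 45901 ± 4590 with control siRNA to 40999 ± 4100 with periostin siRNA, a log2 ratio of -0.16 ± 0.20, which is within its spot error. Its dimmer probe went from 15384 ± 1538 to 27563 ± 2756, a ratio of 0.84 ± 0.20, which differed from that of MT1M by only 0.04 ± 0.29. The MT1E probes thus differed in ratio by several times their combined spot error of 0.29. Among the 3987 genes on the array with at least 2 probes well above background on both arrays, the ratios of the brightest pair of probes differed by a median of 0.20, and by at least as much as those of MT1E in 5.14% and at least as much as those of MT1X in 7.22%. In 902 of the 3987 genes the ratios of this pair had opposite signs, so opposite signs alone do not set MT1E apart. No other member had a second probe.

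MT1F, MT1G and MT1H were dim. MT1F had a signal of 38.0 ± 4.13 with control siRNA and 44.7 ± 4.76 with periostin siRNA, well above background on both arrays, and its log2 ratio of 0.24 ± 0.22 was about as large as its spot error. MT1G was not well above background with control siRNA, at 6.50 ± 1.89, and was so with periostin siRNA, at 12.7 ± 2.29. Set against the lowest signal counted as well above background on the control siRNA array, it was at least 1.69-fold higher, a bound of 0.76 on the log2 scale. The bound shrank to 0.06 under the normexp background correction, but the offset of 50 in that correction is large beside such signals and shrinks their ratio by itself. The unscaled median pixel of this spot was 39.5 under control and 42.0 under periostin siRNA, over a local background of 25.0 and 24.0. MT1H was not well above background on either array, at 3.04 ± 1.56 and 5.32 ± 1.66, and no ratio is given for it.

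**Figure D2:**
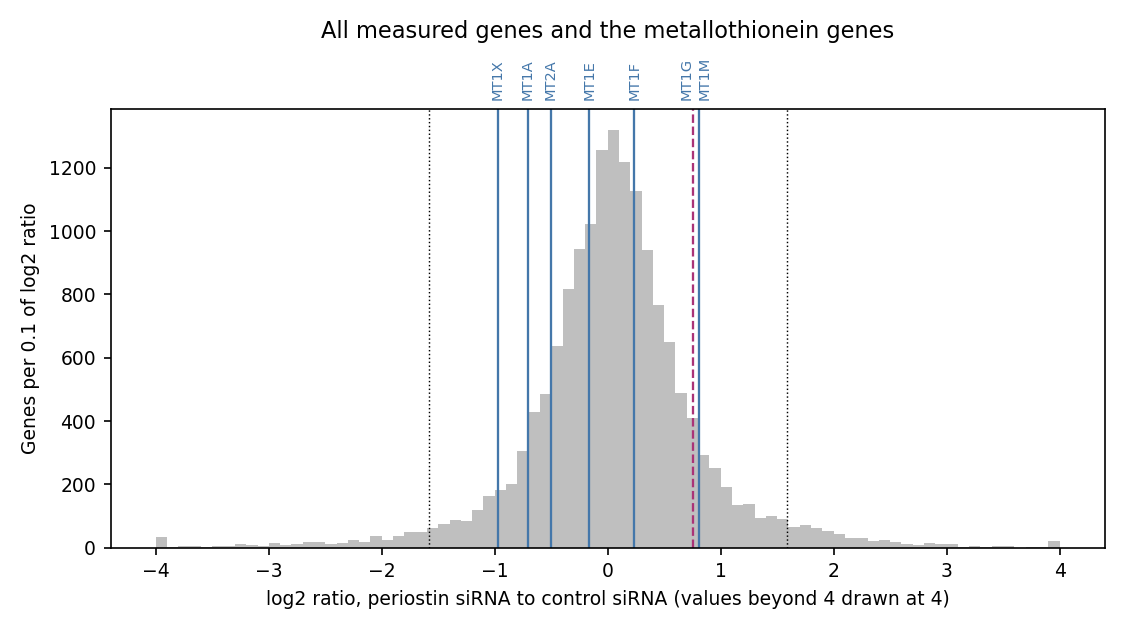
Number of genes per 0.1 of log2 ratio, periostin siRNA over control siRNA, for the 16052 genes measured (grey), with vertical lines for the 7 metallothionein genes that could be measured by their brightest probe. The dashed line for MT1G is a bound, and dotted lines mark 3-fold. MT1X at -0.97 and MT1M at 0.80 lie on either side of the median of 0.06, and none of the lines passes 3-fold.

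The brighter members were also set beside other bright genes. Of the 992 genes with a control signal of at least 10000 that were measured on both arrays, a log2 ratio of 0.0023 was the median. These genes were picked by the control signal alone, which keeps genes that fell from this level and leaves out genes that rose to it. This choice by itself tilts the shares that follow towards lower, by an amount that was not tested. Past 1.5-fold, 12.2% of the 992 were lower and 4.74% higher. Past 2-fold the shares were 5.14% and 1.01%, and past 3-fold 2.72% and 0.101%. MT1A, MT1E, MT1X and MT2A belong to these genes, and MT1A and MT1X were among the 12.2%, while none of the 4 was past 2-fold, apart from MT1X with scaling on the median and after loess normalization.

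Of the 7 other metallothionein genes with a probe, 4 could be measured, and 3 of these, MT1B, MT1L and MT1HL1, had a ratio below 0 by more than its spot error. MT1B, another functional MT1 gene, went from 77596 ± 7760 with control siRNA to 43916 ± 4392 with periostin siRNA, a log2 ratio of -0.82 ± 0.20. MT1L, which RefSeq lists as a transcribed pseudogene, went from 88390 ± 8839 to 55032 ± 5503, a ratio of -0.68 ± 0.20. MT1HL1, the one copy that lies outside the cluster, went from 59971 ± 5997 to 33978 ± 3398, a ratio of -0.82 ± 0.20. The probes named for MT1A, MT1B, MT1L, MT1HL1 and MT1X, the last by its brighter probe, thus had ratios between -0.97 and -0.68. Those furthest apart, of MT1X and MT1L, differed by about their combined spot error. Since these copies may share probes, they cannot be counted as separate genes that were lower. MT3 went from 2252 ± 225 to 2119 ± 212, a ratio of -0.09 ± 0.20. MT4, MT1DP and MT1IP were not well above background on either array.

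**Figure D3:**
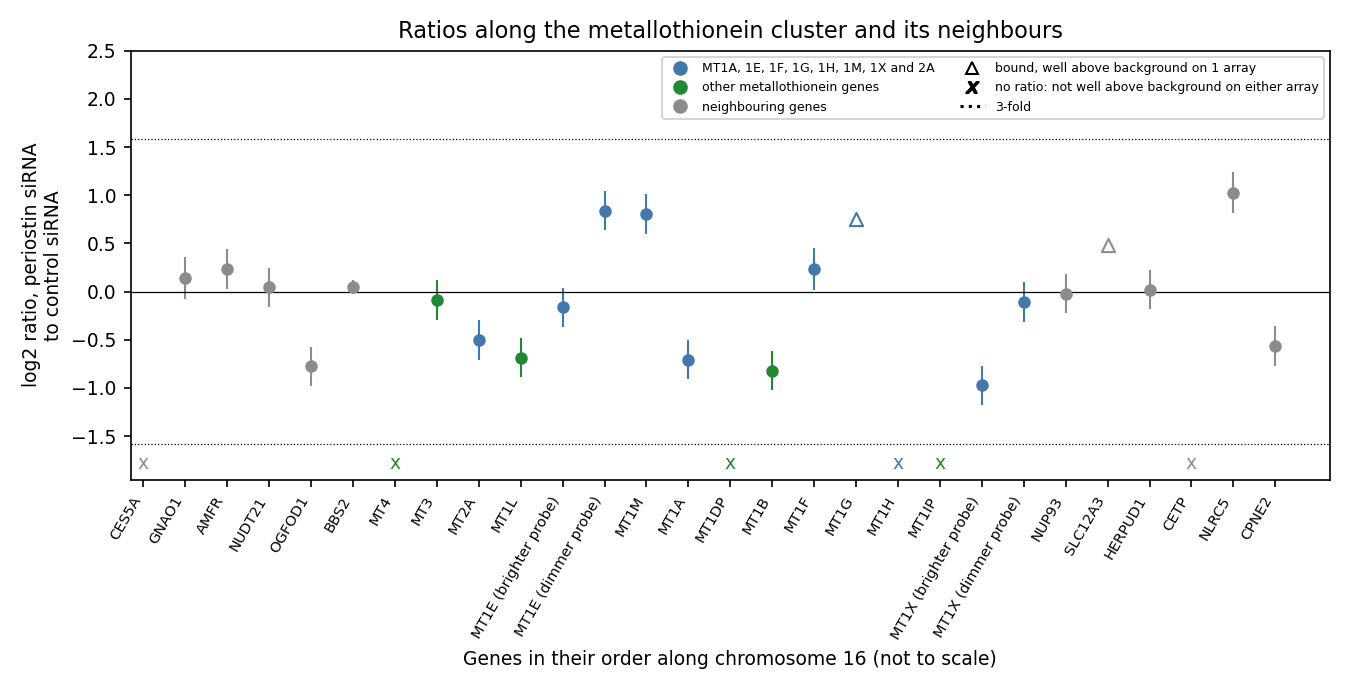
Log2 ratio, periostin siRNA over control siRNA, of metallothionein genes (blue and green) and the nearest protein-coding genes on each side (grey), in their order along chromosome 16, not to scale. Points are single probes with the spot error, or the SD over 10 spots for BBS2, triangles are bounds, crosses stand for genes with no ratio and dotted lines mark 3-fold. MT1M at 0.80 stands between MT1E and MT1A, and MT1A is at -0.71.

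Along the cluster, the probe of MT1M and the dimmer MT1E probe were higher and lay between probes that were lower. From MT3 at -0.09, the order runs over MT2A at -0.50, MT1L at -0.68 and the probes of MT1E at -0.16 and 0.84. It goes on over MT1M at 0.80, MT1A at -0.71, MT1B at -0.82, MT1F at 0.24 and the MT1G bound of 0.76. Last come the probes of MT1X at -0.97 and -0.11. MT3, MT1F, the brighter MT1E probe and the dimmer MT1X probe were within or close to their spot error. MT1A, MT1B, MT1L and MT1X may share probes and are not counted as separate lower genes. The 12 protein-coding genes nearest to the cluster, 6 on each side, were looked at in the same way. Of the 10 that could be measured none was past 3-fold in either direction, 7 were above and 3 below 0, and their median was 0.05, which became -0.08 with scaling on the median. OGFOD1, a ribosomal protein hydroxylase gene, was the lowest at -0.78 ± 0.20, going from 1338 to 781. NLRC5, a transactivator of MHC class I genes that interferon induces, was the highest at 1.03 ± 0.21, going from 53.4 to 109, with a range from 0.55 to 1.07 over the 8 treatments. HERPUD1, a gene of protein quality control in the endoplasmic reticulum, and BBS2, a gene of the primary cilium, were close to 0, at 0.02 ± 0.20 from 1 spot and 0.05 ± 0.07 (SD over 10 spots), and both signs turned under scaling on the median, that of HERPUD1 also after loess normalization.

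Of 14 genes put on a list for metal sensing and metal loading, MTF2 among them by its name, 1 was past 3-fold. MTF1, the zinc sensor that drives metallothionein genes, went from 427 to 510, a log2 ratio of 0.25 ± 0.20, close to its spot error. SLC30A1, a zinc exporter that is itself a target of MTF1, went from 714 to 441, a ratio of -0.69 ± 0.20. SLC39A14, which brings zinc, iron and manganese into cells, went from 3081 to 1842, a ratio of -0.74 ± 0.20. HMOX1, the haem oxygenase induced by metals and oxidants, went from 8645 to 5560, a ratio of -0.64 ± 0.06 (SD over 10 spots). SLC7A11, the cystine importer that supplies cysteine for glutathione, went from 11371 to 3689, a ratio of -1.62 ± 0.20, and was the only gene of this list past 3-fold, although with no scaling its ratio of -1.58 was just short of it. The heat shock genes HSPA1A, at -0.50 ± 0.06 (SD over 10 spots), and HSPA1B, at -0.52 ± 0.20, are near-identical copies and may share probes. HSPA6, at 0.30 ± 0.24 from signals of 28.1 and 34.7, was the highest. All 14 genes were measured, 1 was lower and none was higher by more than 3-fold, 11 had a ratio below 0, some of them within the spot error, such as GCLM at -0.06 ± 0.20, and the median was -0.50, where 45.5% of all genes measured had a ratio below 0. This median falls between the heat shock genes DNAJB1, at -0.51 ± 0.20, and HSPA1A, so it is not the value of a metal sensor. The list mixes metal genes with heat shock genes and others. Its median stayed between -0.63 and -0.46 in the 8 treatments.

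Zinc transporters as a group were on neither side. SLC30A1, SLC39A8, SLC39A10 and SLC39A14 are counted here and in the list of metal sensing and metal loading above, so these lists overlap. Of the 25 genes of the SLC30 family, which exports zinc from the cytosol, the SLC39 family, which brings it in, and TMEM163, 21 could be measured. None was higher and none was lower by more than 3-fold, 12 were above and 9 below 0, and the median was 0.06, the same to 2 decimals as that of all genes, with a sign that turned under scaling on the median, at -0.07. SLC30A3 was the highest at 1.34 ± 0.31, from dim signals of 10.6 and 26.9, and SLC39A14 was the lowest. Over the 8 treatments the ratio of SLC30A3 ranged from 0.30 to 1.38, so that neither its size nor its rank held, since SLC39A11 stayed at 0.56 or above. The normexp correction, which is among these treatments, adds an offset of 50 that by itself shrinks the ratio of signals this dim. SLC39A6, a zinc importer, went from 724 to 440, a ratio of -0.72 ± 0.20, and SLC39A11 went from 1111 to 1795, a ratio of 0.69 ± 0.20.

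Copper handling and glucocorticoid response genes, which bear on other known inputs to metallothioneins, gave mixed values. Of all genes measured, 45.5% had a ratio below 0, 3.37% were higher and 2.75% were lower by more than 3-fold. All 13 copper genes were measured, none was past 3-fold in either direction, 9 were below and 4 above 0, and the median was -0.18. The copper median ran from -0.31 to -0.14 over the 8 treatments, and ATP7B changed sign among them. SLC31A1, the high-affinity copper importer, was the lowest, going from 840 to 398, a ratio of -1.08 ± 0.20. CCS, the copper chaperone of superoxide dismutase, was the highest, going from 1244 to 1871, a ratio of 0.59 ± 0.20. All 11 glucocorticoid response genes were measured as well, none was past 3-fold, 7 were below and 4 above 0, and the median was -0.22. The glucocorticoid median ran from -0.34 to -0.17, and CEBPD changed sign. DUSP1, a phosphatase of MAP kinases, was the lowest at -1.44 ± 0.10 (SD over 10 spots), going from 798 to 295. TSC22D3, which encodes the glucocorticoid-induced leucine zipper, was the highest at 0.97 ± 0.20, going from 1942 to 3811. Both of these are genes that glucocorticoids are known to raise.

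**Figure D4:**
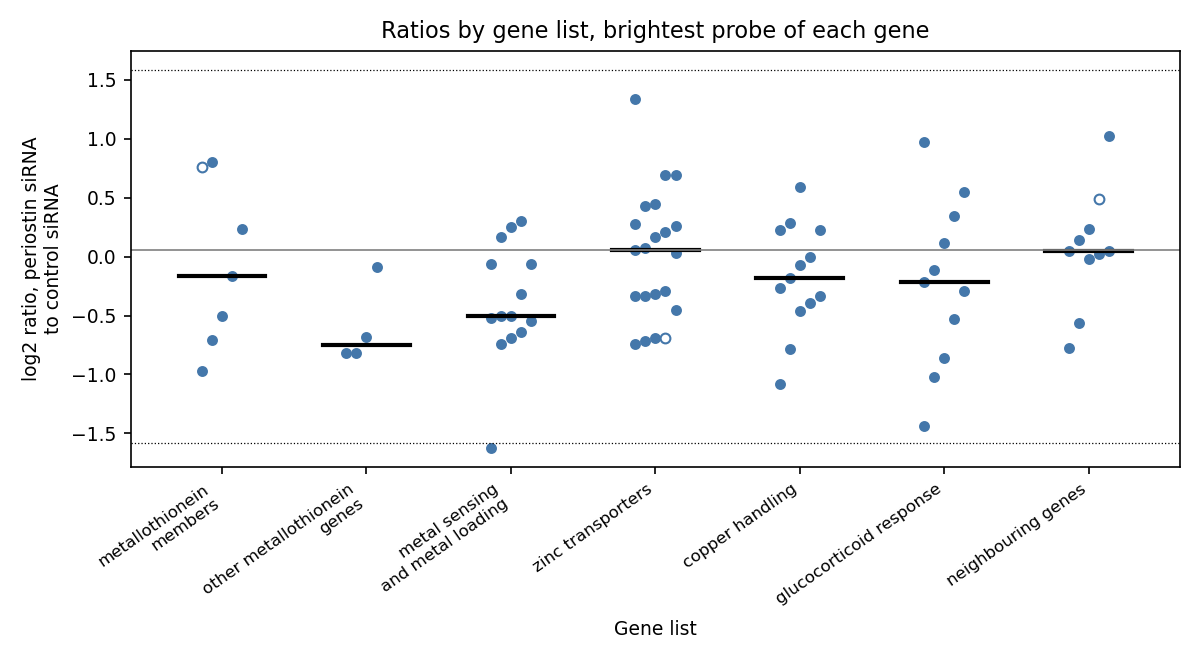
Log2 ratio, periostin siRNA over control siRNA, of the measured genes of each list, by the brightest probe of a gene. Open points are bounds from genes well above background on 1 array, thick bars are list medians, the grey line is the median of all genes at 0.06 and dotted lines mark 3-fold. The median is -0.16 for the 7 metallothionein genes that could be measured, which is the value of the brighter MT1E probe. It is -0.50 for metal sensing and metal loading, between the heat shock genes DNAJB1 and HSPA1A, and 0.06 for zinc transporters. These lists share SLC30A1, SLC39A8, SLC39A10 and SLC39A14. SLC7A11 at -1.62 is the only point past 3-fold.

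**Figure D5:**
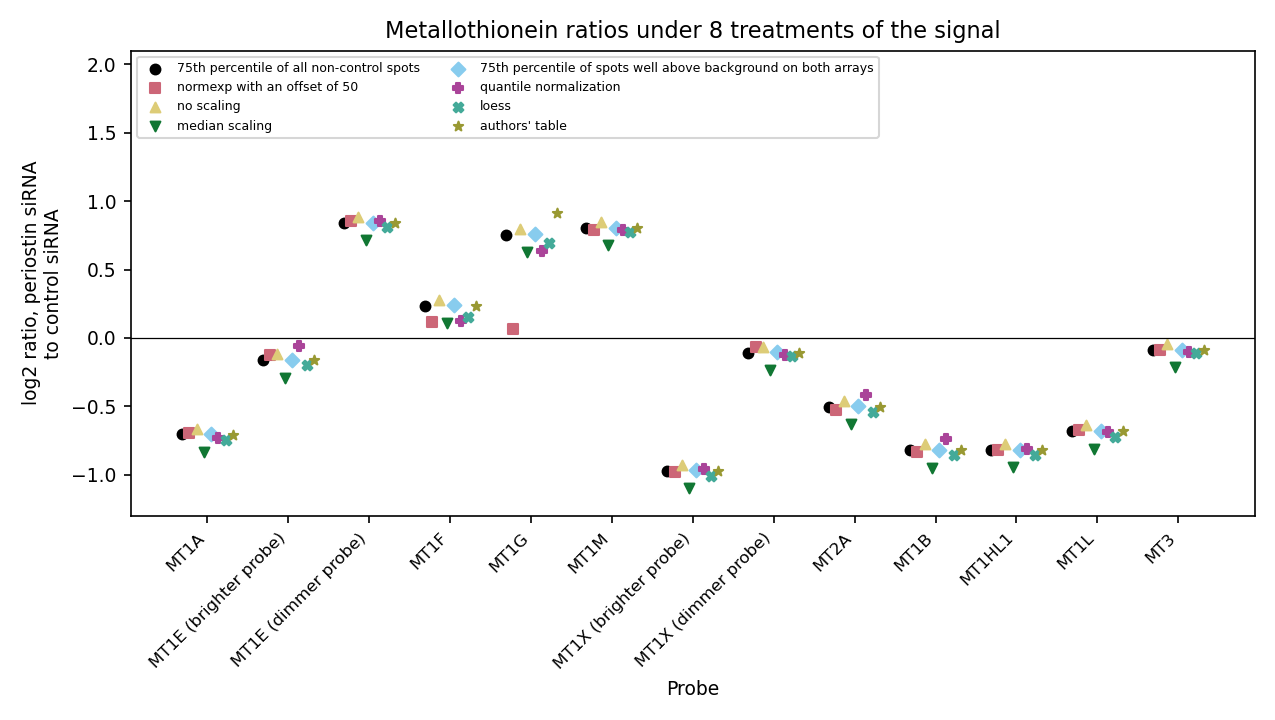
Log2 ratio, periostin siRNA over control siRNA, of each metallothionein probe that could be measured, under 8 treatments of the signal. No probe crosses 0, MT1M stays between 0.68 and 0.85, the brighter MT1X probe between -1.10 and -0.93, and the bound of MT1G ranges from 0.06 to 0.91. The lowest MT1G value is under the normexp correction, whose offset of 50 by itself shrinks ratios of dim signals. Treatments that only rescale an array shift all bright probes by the same amount.

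The genes with a ratio nearest to that of MT1X, the member with the largest absolute ratio, were AIMP2, CATSPER1 and FIBCD1, all at -0.97. With 2 arrays this likeness is that of a single number, and 153 genes lay within 0.05 of MT1X, so it does not set these 3 apart.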

How the data were processed

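RNA of MRC-5 cells was hybridized to 1 single-colour array per condition, 1 with control siRNA and 1 with periostin siRNA, grouped by their labels. The authors deposited the scanner output of Agilent Feature Extraction, version 11.5.1.1 in the file headers and 12.0.3.1 in the submitters' processing notes, in which intensity values are background-subtracted and detrended within each array and not scaled between arrays. A normalized intensity table was deposited as well, its method not given in the sources used here. It was, within 0.1% and for all 49697 probes printed once, a constant multiple of the scanner values (3.65 and 3.54). The array design was annotated on hg19.

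Each processed signal was taken to log2 and scaled by its array's 75th percentile over non-control spots (372 and 383), in Python 3.11.15 with numpy 2.4.6 and pandas 2.3.3. Spots of one probe were averaged, the brightest probe stood for a gene, and a probe well above background on 1 array gave a bound, set against whichever was higher on the dim array, its own signal or the lowest one well above background (7.43 for control and 7.89 for periostin siRNA, unscaled). RefSeq of GRCh38.p14 named 65.1% of spots and gave the gene order and promoters. The calls were tested on simulated data only for changes larger than those of the members, in genes above the 75th percentile of the control signal. Smaller changes, dim genes, bounds from 1 array and differences between cultures were not covered. The members and gene lists were chosen with earlier results of these data known. Named genes were all members, POSTN, and of each list MTF1, SLC30A1, SLC39A14, the genes past 3-fold and those with the highest and lowest ratio, and the 3 nearest in ratio to the member with the largest one; other genes were named after their values were seen. The alternatives were the normexp correction (limma 3.58.1 in R 4.3.3, an offset of 50, on median spot brightness), other scalings, quantile normalization, loess with a span of 0.3, the authors' table, other probe rules and other thresholds. The number of arrays limits the precision.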

Additional observations from a re-analysis of the deposited data

How the results depend on the processing

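No paired analysis was possible because there is a single array per condition, which also leaves no replicate that could be dropped. The normexp background correction gave a POSTN log2 ratio of -2.99, against -3.24. The mean over all probes of a gene in place of the brightest gave a metallothionein median of 0.24, against -0.16, and with it MT1E stood at 0.34 and MT1X at -0.54. Over the other alternatives that median ranged from -0.33 to -0.06. With a threshold of 1.5-fold, chosen after seeing the data, 2 members were higher, MT1M and the bound of MT1G. At that threshold 2 were lower, MT1A and MT1X, the latter by its brighter probe. With 3-fold, 2-fold or 4-fold none was past it, but MT1X passed 2-fold, lower, with scaling on the median (-1.10) and loess (-1.01). The zinc transporter median ranged from -0.07 to 0.10. With scaling on the median, all genes moved by -0.13 at their median, the largest such shift among the 8 signal treatments. The normexp correction left 143 genes higher and 190 lower by more than 3-fold, against 541 and 441, and pulled the bound of MT1G to 0.06. The offset of 50 in that correction shrinks ratios of dim genes by itself, and its part in these drops was not tested. Signal over background limits MT1F, MT1G and MT1H, and the single array per condition limits every value.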
